A study of Mus musculus with 43 samples.

Results

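Untreated p53 KO embryonic stem cells (ESCs) were compared with untreated ESCs that carry no labelled mutation, over 5 mRNA-seq libraries of the 43 samples of a mouse series on the RNA helicase DDX18. The members were chosen from the labels and column names alone: the 3 libraries without drug in the table of the actinomycin D (ActD) experiment in ESCs, and the 2 libraries without drug in the matching table for p53 KO cells. In both groups the cells are labelled as embryonic stem cells of strain 129S1/SVImJ, kept in serum with the self-renewal cytokine LIF and given ActD at 0 ng/ml, and the deposited read totals call them DMSO libraries. The source of both groups is named CJ9, a line of mouse ESCs, and in this pair of tables only the sample titles name the p53 KO. Which part of Trp53 was removed, whether the line is 1 clone, and how many passages part it from its parent are not stated in the labels used here. Each genotype fills a table of its own, so a difference between the genotypes and a difference between the tables, or between the lines, cannot be told apart in these 5 libraries. To gauge this limit, 3 further sets of libraries without drug or knockdown were used: 2 ESC libraries of a cycloheximide (CHX) experiment given CHX at 0 µM, 2 control libraries of p53 KO ESCs from a Ddx18 knockdown experiment, and 3 ESC libraries of a CX-5461 experiment given that drug at 0 µM. Values of single genes are given for the first 2 of these sets only, so such statements leave out the CX-5461 table. The ESC libraries given ActD at 5 or 10 ng/ml and the p53 KO libraries given 10 ng/ml enter only 1 alternative fit. Those at 10 ng/ml are also shown for 2 genes. The knockdown controls are labelled as controls, not as untreated, so control treatment and table cannot be told apart in them. In the text, FPKM means the deposited value after median-ratio rescaling of the 5 libraries to a common reference. A log2 change is the p53 KO mean minus the ESC mean of log2(FPKM + 1), a scale that understates changes of genes with low values.

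The transcription factor p53, the product of Trp53, binds DNA as a tetramer at response elements made of a pair of short half-sites and switches on genes of cell cycle arrest, cell death, DNA repair and metabolism. Its own level is kept down by MDM2, a ubiquitin ligase whose gene is itself a p53 target, so that the pathway holds a negative feedback loop. ESCs have a high level of Trp53 mRNA for a cell that is not under stress, and p53 is known in them for responses to DNA damage and to failing ribosome production and for opposing some features of the pluripotent state.

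The sequences that carry the pathway's known binding motif are shown first, for genes described further on. Below are the 250 bases before an annotated transcript start of 6 p53 target genes, from RefSeq on GRCm38.p6, each read 5′ to 3′ on the strand of its gene. Capitals mark exact matches to the p53 half-site, a motif of 10 bases that reads the same on both strands. Of the genes shown, Cdkn1a, Mdm2, Ccng1 and Bax passed the test as lower in p53 KO, while Sesn1 and Gadd45a did not pass.
Cdkn1a, chr17:29090729-29090978, plus strand: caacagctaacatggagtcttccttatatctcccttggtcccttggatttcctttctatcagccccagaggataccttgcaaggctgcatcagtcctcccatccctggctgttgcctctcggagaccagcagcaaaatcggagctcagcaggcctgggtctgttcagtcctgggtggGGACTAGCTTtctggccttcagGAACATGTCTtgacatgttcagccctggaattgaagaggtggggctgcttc
Mdm2, chr10:117710759-117711008, minus strand: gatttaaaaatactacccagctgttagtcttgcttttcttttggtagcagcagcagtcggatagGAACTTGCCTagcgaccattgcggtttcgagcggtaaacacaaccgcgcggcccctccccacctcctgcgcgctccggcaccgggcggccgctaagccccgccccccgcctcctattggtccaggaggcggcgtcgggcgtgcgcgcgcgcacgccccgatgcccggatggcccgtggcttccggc
Ccng1, chr11:40755287-40755536, minus strand: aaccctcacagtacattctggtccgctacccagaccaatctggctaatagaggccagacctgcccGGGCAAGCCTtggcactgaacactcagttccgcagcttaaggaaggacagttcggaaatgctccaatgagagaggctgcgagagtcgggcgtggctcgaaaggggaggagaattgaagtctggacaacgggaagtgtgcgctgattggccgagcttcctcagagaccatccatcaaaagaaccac
Bax, chr7:45466899-45467148, minus strand: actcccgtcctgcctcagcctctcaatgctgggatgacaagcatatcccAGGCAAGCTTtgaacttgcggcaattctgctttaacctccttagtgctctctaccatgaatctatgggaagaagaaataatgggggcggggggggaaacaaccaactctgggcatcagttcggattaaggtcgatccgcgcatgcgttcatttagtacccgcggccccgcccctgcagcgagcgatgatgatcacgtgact
Sesn1, chr10:41887189-41887438, plus strand: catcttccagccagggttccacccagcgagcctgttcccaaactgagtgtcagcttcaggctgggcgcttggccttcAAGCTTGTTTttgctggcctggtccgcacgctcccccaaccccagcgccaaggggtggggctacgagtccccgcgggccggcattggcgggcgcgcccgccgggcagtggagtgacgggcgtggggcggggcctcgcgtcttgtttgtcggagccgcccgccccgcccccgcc
Gadd45a, chr6:67037408-67037657, minus strand: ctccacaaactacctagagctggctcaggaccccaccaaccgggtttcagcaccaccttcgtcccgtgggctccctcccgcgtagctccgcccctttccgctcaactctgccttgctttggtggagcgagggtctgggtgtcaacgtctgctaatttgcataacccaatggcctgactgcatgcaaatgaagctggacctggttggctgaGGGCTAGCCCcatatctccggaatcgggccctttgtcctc
The Cdkn1a window, which lies before the more upstream of its annotated starts, holds 2 half-sites, and each of the other windows shown holds 1. Over windows from 250 bases before to 50 bases after the start, an exact half-site was found for 9 of the 36 p53 targets called lower that have a promoter in the table (25%), and for 7 of the 25 that were tested and not called (28.0%). Among all 27025 genes with a promoter it was found for 2582 (9.55%). The shares of called and of not called members were thus close to each other. A match is only a run of letters in this window and does not show a binding site.

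The 5 libraries held 7112852 to 12975340 mapped reads, with the fewest in the first ESC library, which alone among the ESC libraries carries the lane label L2 in its column name. Pearson's r of log2(FPKM + 1) over 12203 genes ran from 0.909 to 0.965 among the 3 ESC libraries and was 0.963 between the 2 p53 KO libraries. It ran from 0.862 to 0.928 between the genotypes. The CHX-table ESC libraries stood at 0.897 to 0.962 with the ActD-table ESC libraries and at 0.928 to 0.937 with the p53 KO libraries. All 10 ESC marker genes checked were expressed in both genotypes. Pou5f1 was at 428, 377 and 407 FPKM in ESCs and 295 and 285 FPKM in p53 KO, and Sox2 was at 94.2, 82.4 and 86.2 against 91.2 and 76.8 FPKM. The lowest of the 10, Lin28a and Sall4, were above 40 FPKM in each of the 5 libraries. The fibroblast markers Lum, Postn and S100a4 were at 0 in all 5, as were the blood cell markers Ptprc and Tyrobp. Of the 16 fibroblast markers, 4 were at 1 FPKM or more in all 3 ESC libraries and 5 in both p53 KO libraries.

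Trp53 itself (ENSMUSG00000059552.13, chromosome 11, 69580359 to 69591873 in mm10) was lower in the p53 KO libraries but far from absent. Its level was 229, 246 and 255 FPKM in the 3 ESC libraries and 99.1 and 106 FPKM in the 2 p53 KO libraries (log2 change -1.24 ± 0.08 (SE), adjusted p = 0.00129; limma with Benjamini-Hochberg adjustment over 12739 genes, here and throughout). The genotypes did not overlap, and the CHX-table ESCs and knockdown-table p53 KO controls fell on the same sides. Trp53 was at 238 and 257 FPKM in the CHX-table ESCs and 122 and 132 FPKM in the knockdown-table p53 KO controls. The FPKM of a whole gene does not show which exons the remaining reads come from, so this level cannot say whether a deletion is present. Ddx18, the helicase the series is about, stood at 58.3, 65.4 and 60.7 FPKM in ESCs and 82.7 and 79.9 FPKM in p53 KO (log2 change 0.40 ± 0.08 (SE), adjusted p = 0.035). The direction for Ddx18 turned around in the knockdown-table p53 KO controls, which had 40.0 and 52.3 FPKM.

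**Figure D1:**
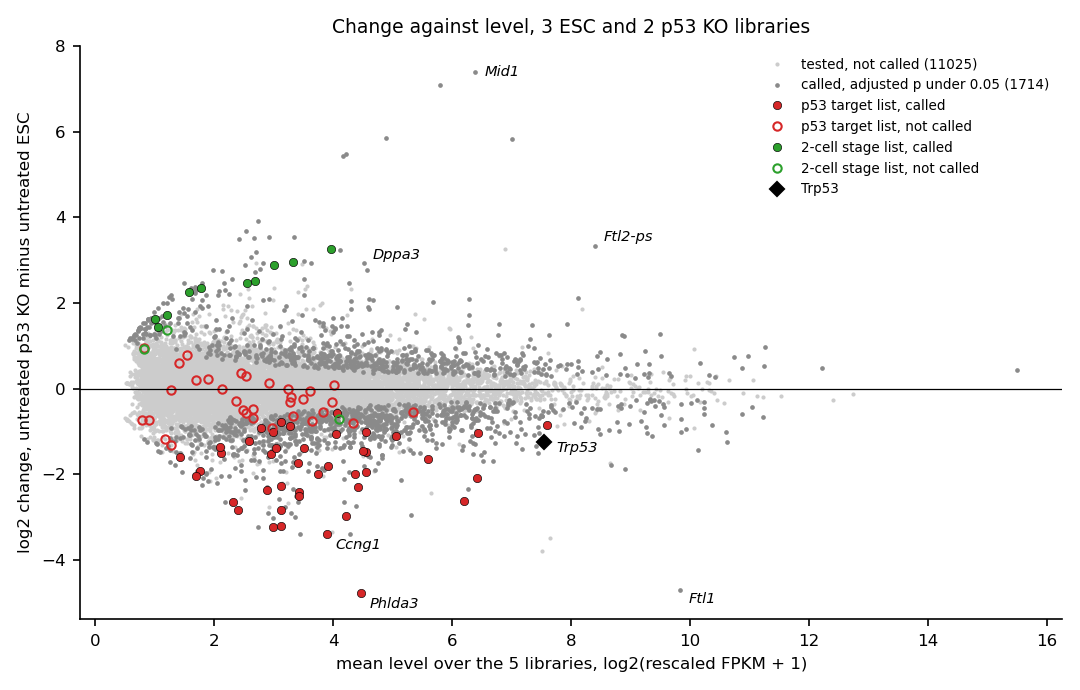
Each point is 1 of 12739 tested genes, with its mean level over the 5 libraries as log2(FPKM + 1) on the x axis and the log2 change of p53 KO against ESC on the y axis; larger filled symbols are called list members and open symbols are list members that did not pass. The called p53 targets all lie below 0 and the called 2-cell stage genes all lie above 0, while Mid1 at 7.41 and Phlda3 at -4.77 mark the ends of the named changes.

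Across all genes, 722 of 12739 passed as higher in p53 KO (5.67%) and 992 as lower (7.79%), 1714 in all (13.5%), at an adjusted p of 0.05. Of the tested genes, 292 passed the filter on low values through the p53 KO libraries alone and 456 through the ESC libraries alone. The median log2 change of all tested genes was 0.03 after rescaling and -0.07 on the values as deposited, a shift of about 0.1; without rescaling the split was 404 higher and 1207 lower. Leaving out 1 library moved the count. It was 3461 without the first ESC library, 682 and 430 without the second and the third, and 116 and 121 without the first and the second p53 KO library. Fewer libraries were then left in each fit, and a fit with 1 p53 KO library assumes that it varies as the ESC libraries do. Higher and lower genes were 1605 and 1856 without the first ESC library. They were 262 and 420 without the second and 161 and 269 without the third. Counts of list members with 1 library left out, given below, are to be read beside these counts over all genes. The 2 groups did not overlap for 52.9% of the tested genes, 27.9% with p53 KO above and 25.1% below. With 3 against 2 libraries an exact permutation test cannot go below 0.1, so all p-values rest on the spread that limma pools over genes. Nothing in the labels says that the libraries of a group came from separate cultures, so the p-values measure only the spread between these libraries. Libraries of the same genotype in different tables give a scale for these counts. CHX-table ESCs against ActD-table ESCs gave 57 calls of 12641 genes (0.451%), fewer than the 1714. At an unadjusted p under 0.05 the gap was smaller, with 2517 genes against 3979 in the first comparison, and the SD of the log2 changes was 0.46 against 0.62. In contrast, knockdown-table p53 KO controls against untreated p53 KO gave 7065 of 12339 (57.3%) and CX-5461-table ESCs against ActD-table ESCs 10041 of 13948 (72%), both more. In the latter 39.8% of genes were higher and 32.2% lower. The CHX-table ESCs serve below as a second set of ESCs, a choice made after these counts were seen, and set against them the same p53 KO libraries gave 885 higher (7.09%) and 1208 lower (9.67%) of 12491 genes. With the 5 ESC libraries of both tables in 1 fit, 395 genes were higher (2.99%) and 674 lower (5.1%) of 13205, 8.1% in all. With the first ESC library and the CHX-table ESCs alone, 97 genes were higher (0.759%) and 170 lower (1.33%) of 12785. This set of ESCs carries only the lane labels of the p53 KO libraries, L2 and L3, and the part of lane was not tested. These comparisons share the p53 KO libraries with the first one, and their values are set side by side.

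Targets of p53 were mostly lower in p53 KO. Of 87 listed genes other than Trp53, 85 were found and 74 passed the filter on low values. Of these, 13 passed it through the ESC libraries alone and 1 through the p53 KO libraries alone. In all, 42 of the 74 were called lower (56.8%, against 7.79% of all tested genes) and 0 higher. Over all 85 found, the p53 KO mean was below the ESC mean in 74 and above it in 10, and 1 was at 0 throughout. The median log2 change of the tested members was -1.03, against 0.03 for all genes. The same p53 KO libraries gave 43 lower and 2 higher of 73 against the CHX-table ESCs (against 9.67% and 7.09% of all genes). They gave 42 lower and 0 higher of 78 against the ESCs of both tables (against 5.1% and 2.99%). Against the first ESC library and the CHX-table ESCs alone, 27 of 75 were lower and 0 higher (against 1.33% and 0.759% of all genes). Between ESCs, the CHX-table libraries against the ActD-table libraries gave 0 of 79 targets by limma, where 0.451% of all genes passed. At an unadjusted p under 0.05 there were 29 of the 79, beside 2517 of all 12641 genes. The log2 change was below 0 in 51 of these targets and above 0 in 28, with a median of -0.22 against 0.03 for all genes. The CX-5461-table ESCs, which carry no labelled mutation, also had lower targets than the ActD-table ESCs, with 40 of 71 lower (56.3%, against 32.2% of all genes) and 14 higher (39.8% of all genes). These 2 sets of ESCs stood at r of only 0.593 to 0.642 with each other. The count of lower targets was 50 without the first ESC library and 30 and 25 without the second and the third. Of all genes 1856 of 12447, 420 of 12404 and 269 of 12409 were lower in these fits. The counts of targets thus moved with those of all genes. With 1 p53 KO library left, the growth arrest median was -0.8981 without the first and -1.011 without the second, beside -0.8765 with both. In the same order it was -1.157 and -1.002 beside -0.9657 for apoptosis, and -1.108 and -1.005 beside -1.033 for the other targets. For regulators of p53 it was -1.344 and -1.353 beside -1.463. The list of p53 targets was drawn up with earlier results of these data known, so its direction here is a description of this pair of groups.

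Among regulators of p53 itself, 6 of 9 tested members, Trp53 included, were called lower (against 7.79% of all tested genes). Ccng1, which encodes cyclin G1, a p53 target that feeds back on MDM2, stood at 22.4, 22.8 and 21.7 FPKM in ESCs and at 0.945 and 1.56 FPKM in p53 KO (log2 change -3.38 ± 0.16 (SE), adjusted p = 9.5e-04). Mdm2 fell from 31.3, 32.5 and 33.1 to 7.4 and 7.89 FPKM (log2 change -1.95 ± 0.10 (SE), adjusted p = 0.00103), and its level was 34 and 33.9 FPKM in the CHX-table ESCs and 10.5 and 9.64 FPKM in the knockdown-table p53 KO controls. Both genes were thus low in the 4 p53 KO libraries of either table and high in the 5 ESC libraries, with no overlap. Trp53inp1, a gene of a nuclear protein of cell death and autophagy, went from 14.6, 16.8 and 13.8 to 1.71 and 1.97 FPKM (log2 change -2.50 ± 0.15 (SE), adjusted p = 0.00129). Trp73, the p53 family member p73, fell from 2.42, 2.38 and 3.15 to 0 and 0.441 FPKM (log2 change -1.60 ± 0.26 (SE), adjusted p = 0.0198). Mdm4, the MDM2 partner that inhibits p53 and was chosen after its values were seen, was at 20.7, 36.9 and 31 against 10.6 and 9.05 FPKM (log2 change -1.46 ± 0.25 (SE), adjusted p = 0.0213). Members that did not pass, also chosen later, were Ppm1d, the phosphatase WIP1, at 6.18, 5.84 and 6.23 against 4.34 and 3.83 FPKM, Rchy1 and the long noncoding RNA gene Trp53cor1.

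Genes of growth arrest gave 8 lower and 0 higher of 14 tested (against 7.79% and 5.67% of all tested genes). Plk2, a polo-like kinase, stood at 13.5, 12.5 and 11.7 FPKM in ESCs and 0.20 and 0.795 FPKM in p53 KO (log2 change -3.21 ± 0.22 (SE), adjusted p = 0.00187). Btg2, an antiproliferative gene, fell from 10.2, 11.7 and 13.3 to 1.54 and 1.69 FPKM (log2 change -2.28 ± 0.17 (SE), adjusted p = 0.00229). Ptprv, a receptor phosphatase gene, fell from 3.54, 3.51 and 3.83 to 0.177 and 0.0753 FPKM (log2 change -2.04 ± 0.20 (SE), adjusted p = 0.00511). These 3 were also low in the knockdown-table p53 KO controls, with Plk2 at 3.31 and 1.8 FPKM. Gtse1, which is expressed in S and G2 phase and whose product binds p53, fell from 126, 118 and 122 to 30.9 and 25.5 FPKM (log2 change -2.09 ± 0.10 (SE), adjusted p = 9.5e-04). Gtse1 was at 84.3 and 74.5 FPKM in the knockdown-table p53 KO controls against 95.6 and 91.1 FPKM in the CHX-table ESCs. Cdkn1a, the cell cycle inhibitor p21, chosen after its values were seen, stood at 30.3, 26.5 and 29.1 FPKM in ESCs, 34.5 and 34 FPKM in the CHX-table ESCs, 6.98 and 6.03 FPKM in p53 KO and 6.49 and 5.5 FPKM in the knockdown-table controls (log2 change -1.98 ± 0.12 (SE), adjusted p = 0.00129). Its remaining level was alike in the 4 p53 KO libraries and below all 5 ESC libraries. Some arrest genes did not pass: Gadd45a, a stress sensor gene, was at 21.2, 12.5 and 11.3 FPKM in ESCs and 13.3 and 17.6 FPKM in p53 KO (adjusted p = 0.884). Sesn1, a stress-induced regulator of TOR signalling, was at 4.38, 2.92 and 3.01 and 3.55 and 3.17 FPKM (adjusted p = 0.982), and Plk3 was at 6.93, 13.3 and 14.6 and 10.9 and 10.6 FPKM. The genotypes overlapped for these genes, which were also chosen after their values were seen.

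**Figure D2:**
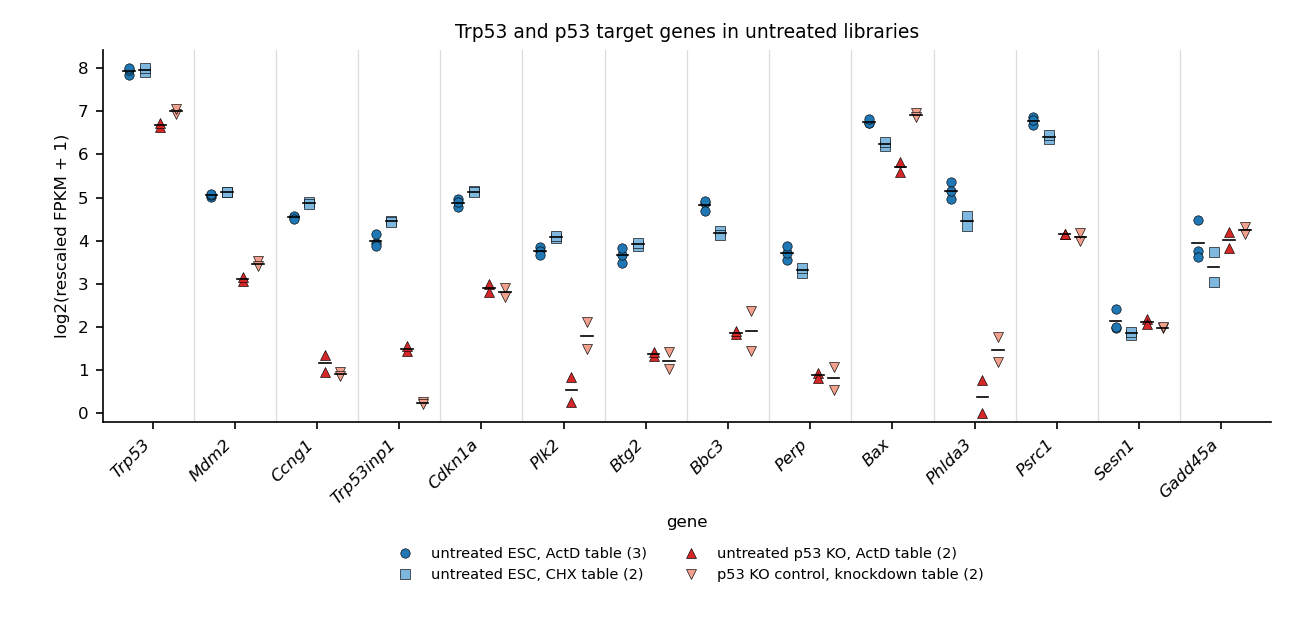
Points are single libraries without drug or knockdown and short lines are group means of log2(FPKM + 1) for Trp53 and 13 target genes, in ESCs of the ActD and CHX tables (circles, squares) and p53 KO cells of the ActD and knockdown tables (triangles up, triangles down). From Mdm2 to Perp and for Phlda3 and Psrc1 both sets of p53 KO libraries lie below all ESC libraries, whereas Bax in the knockdown-table controls, at 124 and 116 FPKM, lies above the ESC libraries, and Sesn1 and Gadd45a overlap.

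Genes of apoptosis gave 8 lower and 0 higher of 14 tested (against 7.79% and 5.67% of all tested genes). Bbc3, which encodes the BCL2 antagonist PUMA, fell from 28.4, 25 and 29.3 to 2.57 and 2.74 FPKM (log2 change -2.96 ± 0.13 (SE), adjusted p = 9.5e-04). Perp, a plasma membrane protein gene, fell from 10.8, 12.1 and 13.8 to 0.915 and 0.779 FPKM (log2 change -2.84 ± 0.17 (SE), adjusted p = 0.00129). Both were as low in the knockdown-table p53 KO controls, with Bbc3 at 4.22 and 1.71 and Perp at 0.462 and 1.13 FPKM. Pidd1, a gene of caspase-2 activation, fell from 16.1, 11.8 and 13.3 to 3.48 and 3.29 FPKM (log2 change -1.74 ± 0.17 (SE), adjusted p = 0.0048). The death-associated kinase gene Dapk1 fell from 12.5, 8.35 and 9.08 to 3.23 and 3.13 FPKM (log2 change -1.37 ± 0.20 (SE), adjusted p = 0.0145). Bax, the pore-forming effector of mitochondrial apoptosis, was lower in the p53 KO libraries of the ActD table, at 56.1 and 47.5 FPKM against 105, 106 and 111 FPKM in ESCs (log2 change -1.04 ± 0.09 (SE), adjusted p = 0.00394). In the CHX-table ESCs Bax was at 72.3 and 77.5 FPKM, nearer to the p53 KO level. In the knockdown-table p53 KO controls it was at 124 and 116 FPKM, above every ESC library of the ActD and CHX tables. Pmaip1, which encodes the BCL2 antagonist NOXA and was chosen after its values were seen, did not pass, with 2.2, 1.89 and 2.08 FPKM in ESCs and 2.66 and 2.36 FPKM in p53 KO (adjusted p = 0.512). In the list of the BCL2 family, Bbc3 and Bax were the 2 members called lower of 13 tested (against 7.79% of all tested genes).

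The other targets, of metabolism, repair and signalling, gave 21 lower and 0 higher of 38 tested (against 7.79% and 5.67% of all tested genes). Phlda3, an inhibitor of AKT, had the most negative log2 change of all tested genes, falling from 40.0, 30.2 and 34.7 FPKM in ESCs to 0 and 0.713 FPKM in p53 KO (log2 change -4.77 ± 0.26 (SE), adjusted p = 0.00116), with 1 of the p53 KO libraries listed at 0. It stood at 22.7 and 19.3 FPKM in the CHX-table ESCs and 1.27 and 2.41 FPKM in the knockdown-table p53 KO controls. Dcxr, a sugar reductase gene, fell from 10.8, 12.6 and 10.6 to 0.405 and 0.23 FPKM (log2 change -3.22 ± 0.17 (SE), adjusted p = 0.00104), and Zfp365 fell from 7.67, 6.63 and 7.0 to 0.129 and 0.146 FPKM (log2 change -2.83 ± 0.18 (SE), adjusted p = 0.00139). Eda2r, a receptor of the TNF family, fell from 3.5, 8.61 and 7.64 to 0.0574 and 0.238 FPKM (log2 change -2.65 ± 0.37 (SE), adjusted p = 0.0134). For each of these 4 genes the p53 KO libraries of both tables lay below every ESC library of the ActD and CHX tables. Psrc1, a gene of the mitotic spindle chosen after its values were seen, went from 116, 102 and 111 to 16.9 and 16.7 FPKM (log2 change -2.63 ± 0.09 (SE), adjusted p = 4.9e-04). Psrc1 was at 15 and 17 FPKM in the knockdown-table controls. Among repair genes, chosen after their values were seen, Xpc and Ddb2 did not pass, and Ddb2 was at 3.55, 3.96 and 5.52 FPKM in ESCs and 5.08 and 5.99 FPKM in p53 KO. Gls2, a glutaminase gene that also did not pass, had 10.0, 6.7 and 8.72 FPKM in ESCs and 8.55 and 8.22 FPKM in p53 KO. The antioxidant gene Gpx1, chosen after its values were seen, was called lower, at 126 and 129 against 294, 199.7 and 210.1 FPKM, yet the CHX-table ESCs had 132 and 125 FPKM, at the p53 KO level, and the knockdown-table p53 KO controls 451 and 426 FPKM.

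With ActD at 10 ng/ml, Cdkn1a stood at 160.2 and 172 FPKM in ESCs and 6.09 and 7.16 FPKM in p53 KO. Ccng1 was at 112 and 107 against 0.697 and 0.739 FPKM. The p53 KO levels of both genes with the drug were thus close to those without it.

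The same genotype difference could be looked at in libraries that the first comparison did not use, the knockdown-table p53 KO controls against the CHX-table ESCs. That pair gave calls for 60.8% of 12477 genes. For the p53 targets 46 of 76 tested were lower there (60.5%, against 36.1% of all genes) and 10 higher (against 24.7% of all genes), with a median log2 change of -1.05 against -0.19 over all genes. Of the 73 targets tested in both, 47 had a lower p53 KO mean in both, as had 2896 of all 11899 genes tested in both. The genes called in the first comparison as a whole did not keep their direction there. Of the 722 called higher, 666 were tested in the second pair and 35% of these had a higher value there (43.6% of all genes), with 162 called higher and 337 called lower. Of the 992 called lower, 989 were tested and 53.6% had a lower value (56.4% of all genes), with 365 called lower and 288 called higher. The called shares were 24.3% against 24.7% of all genes for the higher genes and 36.9% against 36.1% for the lower ones. Against the CX-5461-table ESCs, the knockdown-table p53 KO controls gave 11201 calls of 13520 genes (82.8%), and 35 of 68 p53 targets were lower (51.5%, against 49% of all genes). Of the genes called in the first comparison, 44.4% of the 655 higher ones tested there kept their direction (42.2% of all genes), and 37.1% of the 960 lower ones did (57.8% of all genes), with 533 of the latter called higher. The knockdown-table and CX-5461-table libraries have r values of 0.483 to 0.512 with each other.

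**Figure D3:**
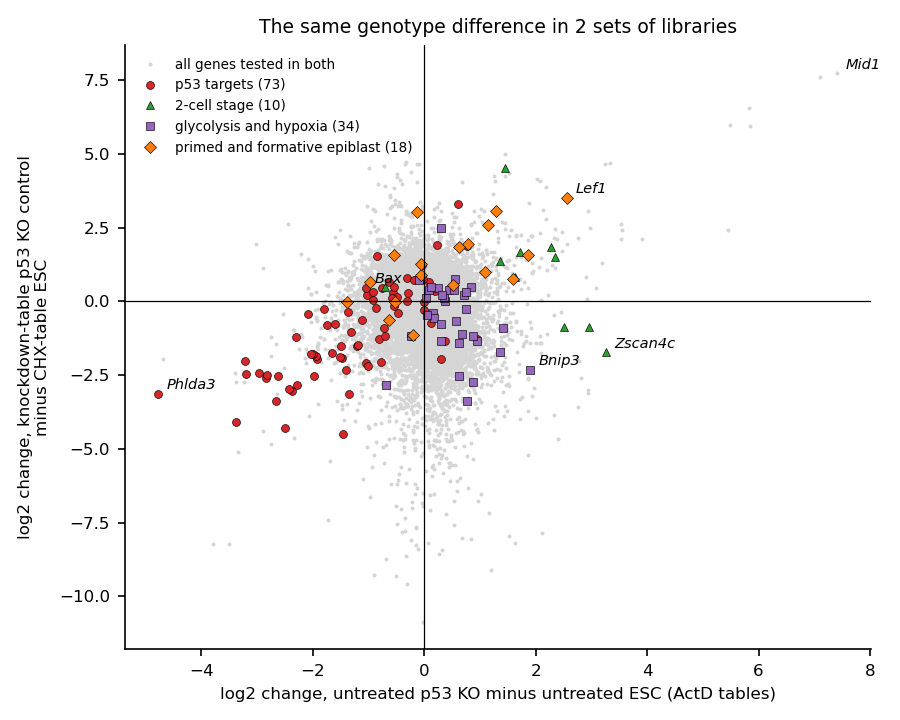
Each point is a gene, with its log2 change in untreated p53 KO against untreated ESC of the ActD tables on the x axis and its log2 change in knockdown-table p53 KO controls against CHX-table ESCs on the y axis; the pairs share no library. Of the red p53 targets 47 of 73 lie at the lower left, below 0 on both axes, as do 2896 of all 11899 genes, Mid1 lies at the upper right end, and the grey cloud of all genes is spread to all sides.

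When each table was reduced to its mean and the 2 p53 KO tables were set against the 3 ESC tables, so that the spread between tables entered the error, 3 of 12411 genes passed (0.0242%), all higher, with 442 at an unadjusted p under 0.05. They were Mid1, Gm20746 and Gm21857. Of the 73 p53 targets tested, 0 passed this fit by limma and 27 had an unadjusted p under 0.05, and their median log2 change was -0.74 against -0.07 for all genes, with 57 below 0 and 16 above. The fit has 5 values per gene, and it takes in the CX-5461 table, whose libraries stood at r of 0.593 to 0.642 with the ActD-table ESCs. Without the CX-5461 table, which leaves fewer values per gene, again 0 of 74 targets tested passed by limma. Before adjustment 37 of these targets were below 0.05. Lower p53 KO means were seen for 61 of them and higher ones for 13. The middle value was -0.95, while that of all genes was -0.09.

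Mid1 showed the largest change of all tested genes. It encodes midline 1, a microtubule-bound ubiquitin ligase, and in the mouse it lies across the boundary of the pseudoautosomal region (chromosome X, 169685199 to 170005736 in mm10). Its level was 0.437, 0.122 and 0.15 FPKM in ESCs and 205 and 209.8 FPKM in p53 KO (log2 change 7.41 ± 0.16 (SE), adjusted p = 1.1e-04). Mid1 was at 0.345 and 0.34 FPKM in the CHX-table ESCs and 315 and 328 FPKM in the knockdown-table p53 KO controls. The log2 difference between knockdown-table p53 KO controls and CHX-table ESCs was 7.74, as large as in the first pair. Predicted genes that overlap Mid1, chosen after their values were seen, moved with it: Gm15726 from 0.771, 0 and 0 to 13.6 and 12.3 FPKM and G530011O06Rik from 0.117, 0 and 0 to 12 and 9.62 FPKM. Gm21857, annotated on chromosome Y, and Gm20746, on chromosome 10, were listed at 0 in all 3 ESC libraries and at 45.7 and 42.2 and 133 and 139.8 FPKM in p53 KO. Both were high in the knockdown-table p53 KO controls too, at 77 and 71.3 and 252 and 182 FPKM. Without strand or mapping details in the sources used here, reads of overlapping genes or near-identical copies cannot be told apart.

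The other genes with the largest changes were a mixed group. Ftl1, the ferritin light chain, fell from 1572, 1375 and 1480.0 to 39.7 and 78.8 FPKM (log2 change -4.69 ± 0.27 (SE), adjusted p = 0.00129). Ftl2-ps, a ferritin pseudogene chosen after its values were seen, was at 60.9, 68.1 and 88.4 FPKM in ESCs and 736 and 729 FPKM in p53 KO (log2 change 3.34 ± 0.16 (SE), adjusted p = 9.5e-04). Ferritin light chain copies are near-identical and can share reads, so both values are uncertain. The knockdown-table p53 KO controls had 347 and 350.1 FPKM of Ftl1, between the 2 groups, and 1909 and 1522 FPKM of Ftl2-ps. Eng, a co-receptor of TGF-β ligands, fell from 17.7, 15.1 and 15.3 to 0.833 and 0.416 FPKM (log2 change -3.40 ± 0.18 (SE), adjusted p = 0.00104). The phosphatase gene Ptp4a3 fell from 32.1, 26.8 and 29.8 to 1.76 and 2.09 FPKM (log2 change -3.38 ± 0.14 (SE), adjusted p = 9.5e-04). Both were low in the knockdown-table p53 KO controls too, at 1.67 and 0.753 and 3.83 and 2.06 FPKM. Hprt, the purine salvage enzyme whose loss is used for drug selection in ESCs, was chosen after its values were seen. It was at 12.5, 16.7 and 12.7 FPKM in ESCs, 21.6 and 17 FPKM in the CHX-table ESCs, 1.18 and 0.807 FPKM in p53 KO and listed at 0 in both knockdown-table controls (log2 change -2.90 ± 0.20 (SE), adjusted p = 0.00171). Tuba3a, an alpha tubulin, rose from 1.55, 3.27 and 4.0 to 20.4 and 22.5 FPKM (log2 change 2.56 ± 0.31 (SE), adjusted p = 0.00919). Fam183b was at 0, 2.55 and 0.894 against 17.3 and 8.51 FPKM (log2 change 2.80 ± 0.58 (SE), adjusted p = 0.0357), but at 4.5 and 5.13 FPKM in the CHX-table ESCs and listed at 0 in both knockdown-table p53 KO libraries.

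Genes of the 2-cell stage of the embryo, which rare cells in ESC cultures express in bursts, were higher in p53 KO. Of 23 listed, 20 were found and 13 tested, 6 of them only because the p53 KO libraries passed the filter; 10 were called higher (against 5.67% of all tested genes) and 0 lower. Over all 20 found, the p53 KO mean was higher in 18, and the summed level of the list was 23.1 to 35.8 FPKM in ESCs, 32.3 to 35.6 in the CHX-table ESCs and 125.9 to 126.8 in p53 KO. In the knockdown-table p53 KO controls it was 79.6 to 87.5 FPKM, also above both ESC sets, and against the CHX-table ESCs 8 of 11 tested members were called higher there (24.7% of all genes) and 3 lower. With 1 library left out, 2 to 12 members were called higher. Zscan4c, a telomere-maintenance factor of that stage, was at 0.853, 4.09 and 3.55 FPKM in ESCs, 3.03 and 3.64 FPKM in the CHX-table ESCs and 34.2 and 30.8 FPKM in p53 KO (log2 change 3.26 ± 0.45 (SE), adjusted p = 0.0132). Zscan4f was at 1.56, 1.85 and 1.68 FPKM in ESCs, 1.73 and 1.85 FPKM in the CHX-table ESCs and 18.5 and 21.3 FPKM in p53 KO (log2 change 2.95 ± 0.15 (SE), adjusted p = 0.00104). Zscan4b and Zscan4d rose as well, with log2 changes of 2.89 and 2.51 (adjusted p = 0.0134 and 0.00162). In the knockdown-table p53 KO controls Zscan4c was at 0.311 and 0.456 FPKM and Zscan4f at 0.643 and 0.656 FPKM there, below the ESC libraries. The deubiquitinase genes of the Usp17l group, chosen after their values were seen, were higher in both p53 KO tables, with Usp17lc at 0, 0.144 and 0.451 FPKM in ESCs, 4.68 and 4.72 FPKM in p53 KO and 3.63 and 4.06 FPKM in the knockdown-table controls. Zscan4 and Usp17l genes are near-identical copies and can share reads. In such bulk libraries more cells in that state and more RNA per such cell cannot be told apart.

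Dppa3, a maternal-effect gene expressed in naive pluripotent and germ cells, rose from 5.89, 4.72 and 5.27 to 44.3 and 49.4 FPKM (log2 change 2.93 ± 0.13 (SE), adjusted p = 9.5e-04). Dppa3 was at 6.17 and 7.99 FPKM in the CHX-table ESCs and 7.5 and 10.1 FPKM in the knockdown-table p53 KO controls. It was the 1 naive gene called higher of 22 tested, beside 6 called lower (against 5.67% and 7.79% of all tested genes). Against the CHX-table ESCs 6 were higher and 6 lower, in the fit with all 5 ESC libraries 1 and 3, and with 1 library left out 0 to 8 were lower. Tbx3, a T-box factor of the naive network, fell from 18.6, 18.1 and 20.4 to 9.33 and 9.18 FPKM (log2 change -0.96 ± 0.11 (SE), adjusted p = 0.00823). Tbx3 was at 18.3 and 20.1 FPKM in the CHX-table ESCs, but at 64.8 and 64.9 FPKM in the knockdown-table controls. Klf2 and Nr0b1, transcription regulators of the same network, were also called lower. Klf2 fell from 199, 179 and 188 to 99.1 and 82.9 FPKM and Nr0b1 from 31.9, 30.9 and 28.6 to 13.1 and 13.5 FPKM (log2 changes of -1.05 and -1.14). The CHX-table ESCs had 104 and 108 and 18.8 and 18.9 FPKM, at the p53 KO level for Klf2 and between the groups for Nr0b1. In the fit with all 5 ESC libraries the adjusted p was 0.17 for Klf2 and 0.0625 for Nr0b1, against 0.00192 for Tbx3. Of 17 core pluripotency genes 2 were called higher and 5 lower (against 5.67% and 7.79% of all tested genes), and 0 and 1 in the fit with all 5 ESC libraries (against 2.99% and 5.1%). With 1 library left out 0 to 5 were lower. The member lower in that fit was Fgf4, the growth factor that primes ESCs for differentiation, which fell from 34.8, 40.8 and 41.7 to 24.5 and 22.2 FPKM (log2 change -0.72 ± 0.12 (SE), adjusted p = 0.0186). Fgf4 was at 37.4 and 36.1 FPKM in the CHX-table ESCs and 29.3 and 27.2 FPKM in the knockdown-table controls. Utf1 was at 347, 291 and 313 FPKM in ESCs and 190.4 and 174 FPKM in p53 KO (log2 change -0.80), but its level of 182 and 169.5 FPKM in the CHX-table ESCs lay with the p53 KO libraries. Pou5f1 and Lin28a showed small changes of -0.47 and 0.63, with adjusted p of 0.167 and 0.0613 in the fit with all 5 ESC libraries.

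Several genes of the primed or formative epiblast, the state that follows naive pluripotency, were higher in p53 KO, but the list was evenly split. The log2 change was above 0 in 9 of the 18 tested and below 0 in 9, with a median of 0.23 against 0.03 for all genes. Of 18 tested, 6 were called higher and 2 lower (against 5.67% and 7.79% of all tested genes), and 8 and 2 in the fit with all 5 ESC libraries (against 2.99% and 5.1%). Leaving out 1 library gave 1 to 9 higher. Lef1, a transcription factor of the WNT pathway, was at 1.83, 0.151 and 0.323 FPKM in ESCs, 0.18 and 0.676 FPKM in the CHX-table ESCs, 9.05 and 8.25 FPKM in p53 KO and 16.8 and 17.2 FPKM in the knockdown-table controls (log2 change 2.57 ± 0.42 (SE), adjusted p = 0.0191). The kinase gene Pim2 rose from 7.78, 8.74 and 9.58 to 34.8 and 33.2 FPKM (log2 change 1.85 ± 0.12 (SE), adjusted p = 0.0017). Pim2 was at 24.8 and 27.8 FPKM in the knockdown-table controls. Otx2, a homeobox factor of the early epiblast, rose from 2.53, 5.75 and 5.65 to 13 and 17.8 FPKM (log2 change 1.59 ± 0.34 (SE), adjusted p = 0.0375). Otx2 was at 5.32 and 5.42 FPKM in the CHX-table ESCs and 11.6 and 11 FPKM in the knockdown-table controls. In all 3 cases the 4 p53 KO libraries lay above the 5 ESC libraries. Genes of DNA methylation and demethylation gave 3 higher and 0 lower of 13 (against 5.67% and 7.79% of all tested genes), and 3 and 3 against the CHX-table ESCs (against 7.09% and 9.67%). With 1 library left out 0 to 3 were higher. The higher ones included the de novo methyltransferase genes. Dnmt3b was at 42.2, 48.6 and 48.8 FPKM in ESCs and 97.8 and 103 FPKM in p53 KO (log2 change 1.10 ± 0.10 (SE), adjusted p = 0.00358) and Dnmt3a was at 15.4, 21.6 and 20.7 and 33.5 and 33.5 FPKM (log2 change 0.79 ± 0.16 (SE), adjusted p = 0.0351). Nodal, the TGF-β family ligand that sustains the epiblast, went the other way, from 19.3, 22.3 and 24.9 to 7.26 and 8.4 FPKM (log2 change -1.39 ± 0.15 (SE), adjusted p = 0.00649). Nodal was at 23.1 and 28.4 FPKM in the knockdown-table controls, the level of the ESCs.

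Among markers of later lineages 1 was called higher and 1 lower of 11 tested for the trophectoderm, 1 higher of 6 for the neuroectoderm and 1 lower of 10 for the primitive endoderm, shares near the 13.5% of all tested genes. The filter was passed through the p53 KO libraries alone by 1 trophectoderm, 2 neuroectoderm and 2 primitive endoderm members. Through the ESC libraries alone it was passed by 2 primitive endoderm members. Id2, an inhibitor of differentiation factors listed with the trophectoderm, rose from 2.6, 3.7 and 3.93 to 15.9 and 15.2 FPKM (log2 change 1.92 ± 0.19 (SE), adjusted p = 0.00509). Id2 was at 27 and 16.3 FPKM in the knockdown-table controls. Tead4 fell from 8.66, 7.73 and 9.18 to 3.09 and 4.15 FPKM (log2 change -1.05 ± 0.17 (SE), adjusted p = 0.019). Pax6, of the neuroectoderm, stood at 0.708, 0.98 and 0.702 against 3.71 and 3.08 FPKM (log2 change 1.29 ± 0.21 (SE), adjusted p = 0.0199). Hnf4a, of the endoderm, was at 1.86, 1.42 and 1.76 against 0.126 and 0.0713 FPKM (log2 change -1.28 ± 0.23 (SE), adjusted p = 0.0249). Pax6 entered the test through the p53 KO libraries alone and Hnf4a through the ESC libraries alone, so each was tested because of the group where it is high. Of the 3 mesoderm genes tested 0 passed by limma, with 1 at an unadjusted p under 0.05 and Bmp4 at 10.0, 11.4 and 12.9 against 8.13 and 8.2 FPKM. The summed level of 20 trophectoderm markers was 58.4 to 106.9 FPKM in ESCs and 76.7 to 81.8 FPKM in p53 KO, while 17 neuroectoderm markers found summed to 8.93 to 10.8 against 12.8 to 15.6 FPKM. In the knockdown-table p53 KO controls the sums were higher, at 156.5 to 185.9 and 26.4 to 29.5 FPKM. The fibroblast list summed to 407.9 to 444.9 FPKM there against 155.6 to 162.7 in untreated p53 KO and 190.6 to 205.3 in ESCs. Their part in the differences from that table was not tested. In the first comparison 2 of 6 fibroblast markers tested were called higher and 2 lower (against 5.67% and 7.79% of all tested genes). Of these 6, 1 passed the filter through the p53 KO libraries alone and 1 through the ESC libraries alone. The higher ones were Acta2 and Tagln, with log2 changes of 1.45 and 1.24. Acta2 was at 1.8 and 2.23 FPKM in untreated p53 KO and 28 and 42.7 FPKM in the knockdown-table controls. Vim, which ESCs also express, was at 51.8, 42.8 and 49.2 FPKM in ESCs and 22.8 and 23.6 FPKM in p53 KO (log2 change -1.01 ± 0.11 (SE), adjusted p = 0.00679). Laptm5, a lysosomal gene listed as a blood cell marker, fell from 27.2, 31.7 and 33 to 4.12 and 3.32 FPKM (log2 change -2.75 ± 0.14 (SE), adjusted p = 0.00104). In ESCs it made up most of the blood list, which summed to 30.2 to 36.4 FPKM in ESCs and 7.49 to 8.15 FPKM in p53 KO, with Ptprc, the pan-leukocyte gene, at 0 in both. Of 3 blood markers tested, Laptm5 was the 1 called lower and the globin gene Hba-a2 the 1 called higher (log2 change 1.25). Of these 3, 1 passed the filter through the p53 KO libraries alone and 1 through the ESC libraries alone.

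Among germline genes 4 of 18 tested were called higher and 0 lower (against 5.67% and 7.79% of all tested genes). Of these 18, 2 passed the filter through the p53 KO libraries alone and 2 through the ESC libraries alone. The count of higher members was 2 in the fit with all 5 ESC libraries (against 2.99% of all genes). It was 12 of 17 without the first ESC library (against 1605 of 12447 genes). Without the second and the third it was 3 of 16 and 1 of 17 (against 262 of 12404 and 161 of 12409). With 1 p53 KO library left, the list median was 0.82 without the first and 0.64 without the second, beside 0.77 with both. The homeobox gene Rhox5 rose from 25.9, 23.1 and 17.1 to 90.7 and 93.2 FPKM (log2 change 2.03 ± 0.18 (SE), adjusted p = 0.00364). Rhox5 was at 550.4 and 380.1 FPKM in the knockdown-table controls. Taf7l, a germ cell subunit of a general transcription factor, was at 0, 0.991 and 0.718 against 4.15 and 3.66 FPKM (log2 change 1.70 ± 0.35 (SE), adjusted p = 0.035). Taf7l entered the test through the p53 KO libraries alone, the group where it is high. Tdrkh and Stag3, genes of the piRNA pathway and of meiotic cohesin, had log2 changes of 1.38 and 1.04 against the ActD-table ESCs. Their values were 0.49 and 0.34 against the CHX-table ESCs (adjusted p = 0.0553 and 0.11). Of 24 imprinted genes tested 5 were called higher and 0 lower (against 5.67% and 7.79% of all tested genes), and 0 to 6 were higher with 1 library left out. Grb10, a growth-restraining adaptor, rose from 5.01, 8.57 and 10.3 to 34.6 and 35.4 FPKM (log2 change 2.05 ± 0.28 (SE), adjusted p = 0.0121). Grb10 was at 6.65 and 6.53 FPKM in the CHX-table ESCs and 20.0 and 17 FPKM in the knockdown-table controls. Mest rose from 15.4, 12.6 and 10.5 to 29.1 and 29.6 FPKM (log2 change 1.15 ± 0.17 (SE), adjusted p = 0.0148). Mest was at 16.1 and 13.7 FPKM in the knockdown-table controls. Snrpn was at 59.5, 56.5 and 50.2 against 82.7 and 83.6 FPKM (log2 change 0.58 ± 0.10 (SE), adjusted p = 0.0197). Ddx3y, a Y-linked helicase gene, was at 6.32, 6.55 and 5.14 FPKM in ESCs, 2.73 and 2.59 FPKM in p53 KO and 0.297 and 0.338 FPKM in the knockdown-table controls (log2 change -0.93 ± 0.17 (SE), adjusted p = 0.0262).

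**Figure D4:**
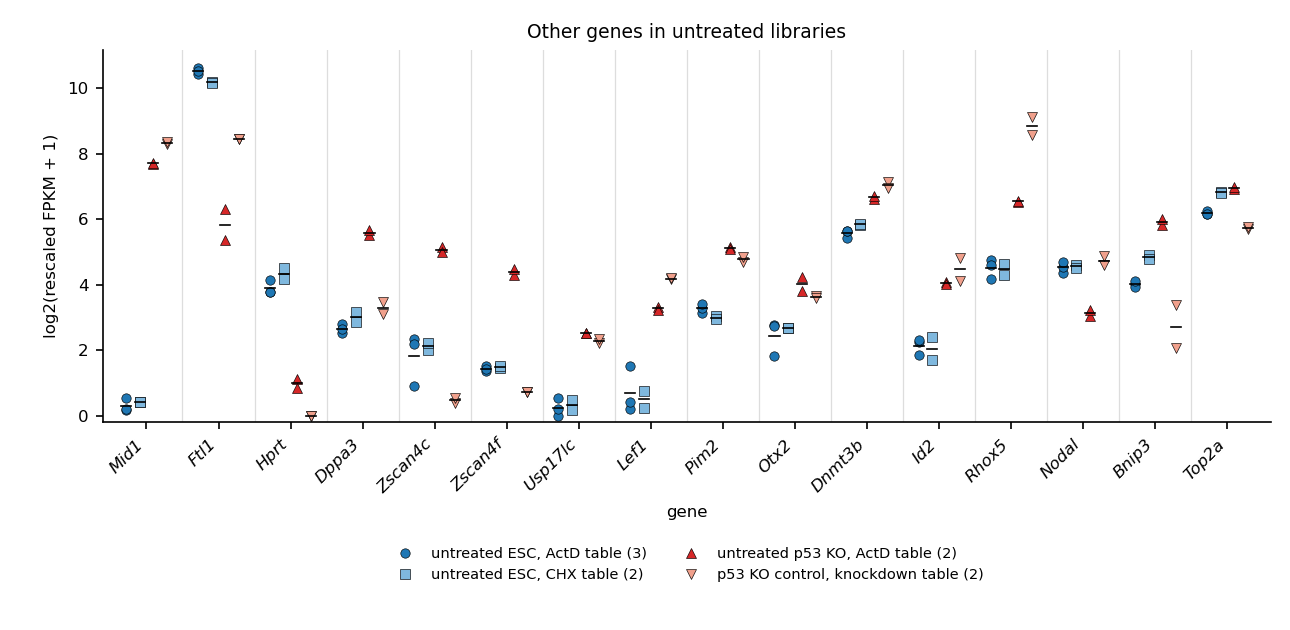
Points are single libraries without drug or knockdown and short lines are group means of log2(FPKM + 1) for 16 genes, with ESCs of the ActD and CHX tables as circles and squares and p53 KO cells of the ActD and knockdown tables as triangles up and down. Mid1, Lef1, Pim2 and Rhox5 are high in both p53 KO tables, Zscan4c and Bnip3 are high in the p53 KO libraries of the ActD table and low in those of the knockdown table, and Top2a in the CHX-table ESCs lies at the level of those p53 KO libraries.

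Glycolytic and hypoxia-responsive genes were often higher in the p53 KO libraries of the ActD table. Of 34 tested, 16 were called higher and 1 lower (against 5.67% and 7.79% of all tested genes). The counts were 14 and 1 against the CHX-table ESCs (against 7.09% and 9.67%) and 10 and 0 against the ESCs of both tables (against 2.99% and 5.1%). Bnip3, a mitophagy receptor, rose from 15.1, 14.3 and 16.1 to 55.3 and 63.5 FPKM (log2 change 1.90 ± 0.11 (SE), adjusted p = 0.00125). Bnip3 was at 29 and 26.6 FPKM in the CHX-table ESCs. P4ha1, a collagen prolyl hydroxylase gene, rose from 7.36, 8.01 and 8.36 to 24.2 and 19.7 FPKM (log2 change 1.36 ± 0.14 (SE), adjusted p = 0.00552). The adenylate kinase gene Ak4 rose from 8.48, 8.3 and 7.78 to 17.1 and 16.5 FPKM (log2 change 0.95 ± 0.11 (SE), adjusted p = 0.00919). The aldolase gene Aldoc stood at 5.6, 10.8 and 10.8 FPKM in ESCs, 16.8 and 12.6 FPKM in the CHX-table ESCs and 25.4 and 24.4 FPKM in p53 KO (log2 change 1.41 ± 0.28 (SE), adjusted p = 0.0323). The knockdown-table p53 KO controls had lower levels, with Bnip3 at 9.42 and 3.15 and P4ha1 at 2.78 and 2.96 FPKM. Against the CHX-table ESCs 6 of 34 were higher and 16 lower (24.7% and 36.1% of all genes). The count of higher members changed with the libraries used, as did that of all genes. It was 22 without the first ESC library (against 1605 of 12447 genes). Without the second and the third it was 8 and 7 (against 262 of 12404 and 161 of 12409). With the first ESC library and the CHX-table ESCs as the only controls it was 1 (against 0.759% of all genes). With 1 p53 KO library left, the list median was 0.47 without the first and 0.52 without the second, beside 0.49 with both.

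In the integrated stress response 3 of 27 tested were called higher and 8 lower (against 5.67% and 7.79% of all tested genes), and 2 and 7 in the fit with all 5 ESC libraries (against 2.99% and 5.1%). Without the first, the second and the third ESC library 10, 4 and 4 were lower. Of all genes 1856 of 12447, 420 of 12404 and 269 of 12409 were lower in these fits. With 1 p53 KO library left, the list median was -0.11 without the first and -0.22 without the second, beside -0.22 with both. Nupr1, a stress-induced chromatin protein gene, fell from 40.3, 55.8 and 49.6 to 17.4 and 24.9 FPKM (log2 change -1.17 ± 0.20 (SE), adjusted p = 0.0213). Pck2, a mitochondrial enzyme gene and ATF4 target, fell from 11, 12 and 13 to 5.87 and 6.06 FPKM (log2 change -0.90 ± 0.13 (SE), adjusted p = 0.0145). Sesn2, a target of both ATF4 and p53, fell from 39.7, 42.2 and 42.5 to 18.6 and 18.6 FPKM (log2 change -1.12 ± 0.09 (SE), adjusted p = 0.00254). Atf4 itself, chosen after its values were seen, was at 193, 176 and 174 FPKM in ESCs, 179 and 184 FPKM in the CHX-table ESCs, 119.5 and 119 FPKM in p53 KO and 133 and 128 FPKM in the knockdown-table controls (log2 change -0.59 ± 0.07 (SE), adjusted p = 0.00972). These 4 genes were lower in both p53 KO tables than in the ActD-table and CHX-table ESCs. Ddit3, the pro-apoptotic factor CHOP, rose instead, from 7.59, 14.2 and 10.7 to 23.3 and 21.9 FPKM (log2 change 1.04 ± 0.25 (SE), adjusted p = 0.0483). Ddit3 was at 23.3 and 16.4 FPKM in the knockdown-table controls. Immediate early genes gave 1 higher and 6 lower of 18 tested (against 5.67% and 7.79% of all tested genes). In the same fits without 1 ESC library 6, 2 and 3 of them were lower. With 1 p53 KO library left, their median was -0.30 without the first and -0.45 without the second, beside -0.38 with both. Against the first ESC library and the CHX-table ESCs 0 of 18 were lower by limma, where 1.33% of all genes were. Egr1 rose from 9.41, 8.98 and 9.28 to 25.9 and 28.9 FPKM (log2 change 1.47 ± 0.11 (SE), adjusted p = 0.00229), while Nr4a1 fell from 40.8, 35 and 35.9 to 11.7 and 12.3 FPKM (log2 change -1.55 ± 0.11 (SE), adjusted p = 0.00192). Ier2 fell from 73.4, 54.1 and 55.5 to 26 and 25.7 FPKM (log2 change -1.19 ± 0.15 (SE), adjusted p = 0.010). In the knockdown-table controls Nr4a1 was at 42 and 37.3 and Ier2 at 102 and 90.2 FPKM, no lower than in ESCs.

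For the cell cycle and the ribosome the calls depended on which ESC libraries and which p53 KO libraries were used. Of 20 genes of G2 and mitosis 9 were called higher and 1 lower (against 5.67% and 7.79% of all tested genes), but 2 and 0 in the fit with all 5 ESC libraries (against 2.99% and 5.1%). Leaving out any 1 library gave 0 to 14 higher. Top2a, the DNA topoisomerase of dividing cells, was at 70.3, 75 and 70.9 FPKM in ESCs, 113 and 109.6 FPKM in the CHX-table ESCs and 121 and 126 FPKM in p53 KO. Its log2 change was 0.77 against the first set (adjusted p = 0.00431) and 0.14 against the second (adjusted p = 0.161). Cenpf, a kinetochore gene, passed against both, at 10.9, 11.2 and 10.5 and 13 and 12.4 FPKM in the ESC sets and 20.8 and 20.6 FPKM in p53 KO (log2 change 0.87 ± 0.10 (SE), adjusted p = 0.0091; adjusted p = 0.014 against the second set). S phase genes gave 3 higher and 3 lower of 23 (against 5.67% and 7.79% of all tested genes). Among them the helicase subunit gene Mcm2 fell from 103, 102 and 101 to 47.4 and 46.7 FPKM (log2 change -1.10 ± 0.07 (SE), adjusted p = 0.00129). Mcm2 was at 95.6 and 86.1 FPKM in the CHX-table ESCs. E2f1 rose from 8.39, 10.2 and 10.5 to 18.2 and 17.4 FPKM (log2 change 0.82 ± 0.14 (SE), adjusted p = 0.020). Of 57 ribosomal protein genes 7 were called higher and 19 lower (against 5.67% and 7.79% of all tested genes), but 0 and 4 in the fit with all 5 ESC libraries, and 3 to 27 were lower with 1 library left out. Of 58 ribosome biogenesis genes 10 were higher and 3 lower (against 5.67% and 7.79% of all tested genes), but 0 and 2 in that fit. Among all genes tested in that fit 2.99% were higher and 5.1% lower. In the knockdown-table p53 KO controls against the CHX-table ESCs, 24.7% of all genes were higher and 36.1% lower. There G2 and mitosis genes gave 4 higher and 11 lower of 20, and S phase genes 2 and 14 of 22. Ribosomal protein genes gave 25 and 15 of 57 there, and ribosome biogenesis genes 21 and 22 of 58. Rpl8 fell from 2081, 1799.5 and 1936 to 944 and 975 FPKM (log2 change -1.01 ± 0.08 (SE), adjusted p = 0.00229), with 1642 and 1554 FPKM in the CHX-table ESCs. Rps15, in contrast, was at 624 and 626 FPKM in p53 KO and 746 and 631 FPKM in the CHX-table ESCs, beside 1407, 1092 and 1105 FPKM in the first ESC set. The mitochondrial transcripts mt-Co1 and mt-Nd4 were higher in p53 KO than in the first ESC set (log2 changes of 0.77 and 0.55) and lower than in the second (-0.42 and -0.52), so no direction can be given for them. Subunit genes of PRC2, the complex that methylates histone H3 at lysine 27, gave 3 higher and 1 lower of 12 (against 5.67% and 7.79% of all tested genes). By limma 0 passed in the fit with all 5 ESC libraries (against 8.1%), where 5 had an unadjusted p under 0.05. Ezh2 was at 26.2, 32.5 and 32.7 FPKM in the first ESC set, 44.9 and 44.1 FPKM in the second and 47.3 and 52.9 FPKM in p53 KO. Of 27 replication-dependent histone genes 0 passed by limma (against 13.5% of all tested genes), with 5 at an unadjusted p under 0.05. Of 10 genes of MHC class I presentation 1 was called higher (against 5.67% of all tested genes). It was H2-K1, at 12.8, 10.4 and 10.1 FPKM in ESCs and 16.4 and 19.4 FPKM in p53 KO (log2 change 0.64 ± 0.15 (SE), adjusted p = 0.0486).

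**Figure D5:**
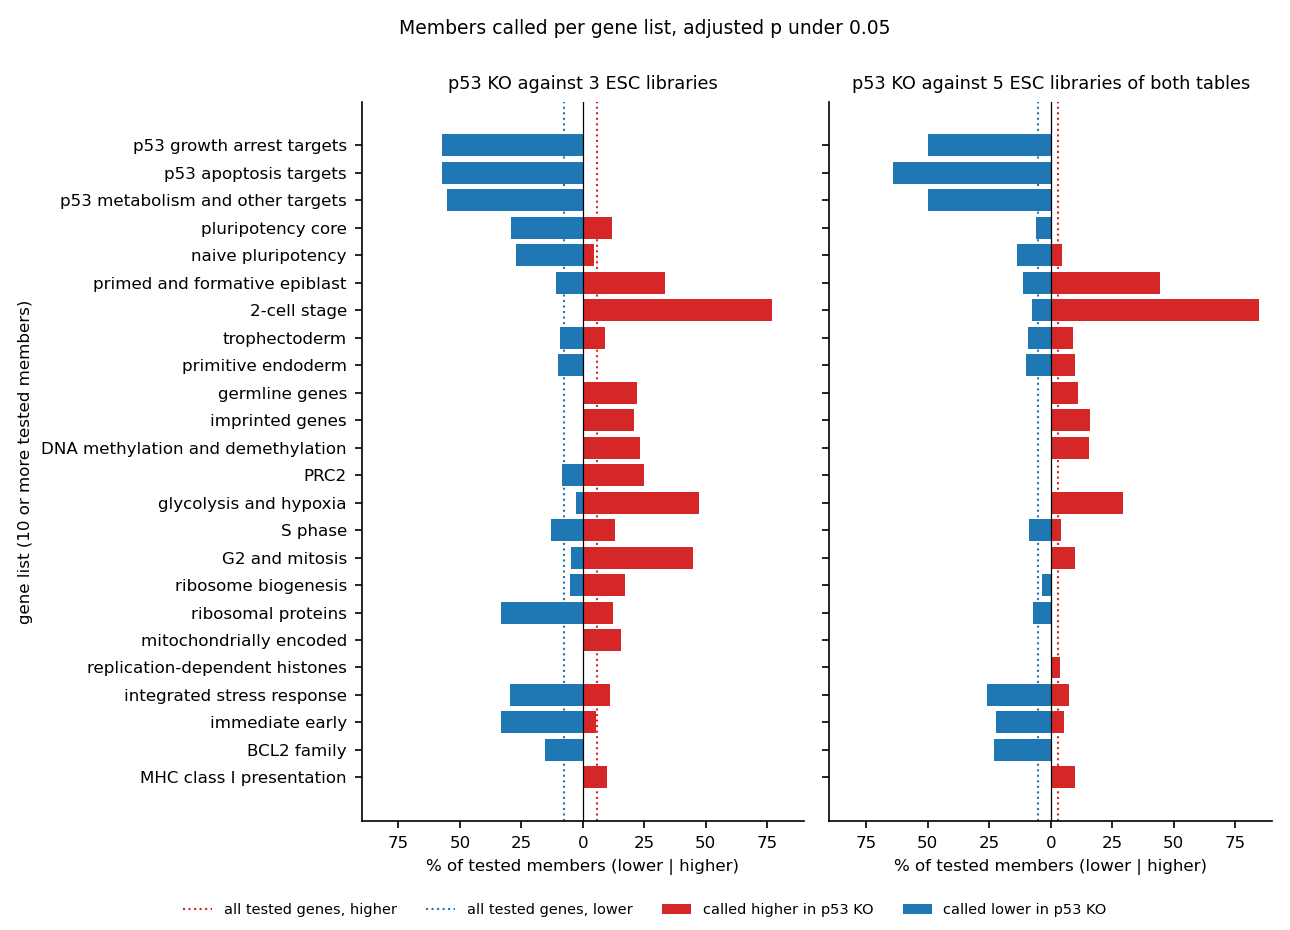
Bars give the share of tested members (in percent) called higher (right, red) or lower (left, blue) in p53 KO for each list with 10 or more tested members, against the 3 ESC libraries of the ActD table (left panel) and against 5 ESC libraries of 2 tables (right panel); dotted lines are the shares among all tested genes. The p53 target lists extend to the left and the 2-cell stage list to the right in both panels, whereas the bars of ribosomal proteins, ribosome biogenesis, PRC2 and G2 and mitosis shrink in the right panel.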

How the data were processed

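Messenger RNA was taken from total RNA with oligo-dT beads and sequenced, per the labels' protocols. The expression values are FPKM deposited by the authors. The program and the scaling behind them are not given in the sources used here. TopHat2 2.0.11, CASAVA and the builds mm9 and mm10 are named without a role, per the submitters' processing notes; the deposited loci lie on mm10 and are given 1-based. The counts of mapped reads per library, and the fraction of reads mapped, are those the authors deposited. FPKM values hold no counts, so no count test was run. Columns were matched to groups by their names, not to single samples, and 7 value columns of other treatments in the 5 tables were not used.

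Both tables were joined by gene ID and locus (46851 genes), and libraries were rescaled by the median ratio. Genes with at least 1 FPKM in at least 2 of the 5 libraries were tested on log2(FPKM + 1) with limma 3.58.1 in R 4.3.3 (variance trend, two-sided, Benjamini-Hochberg adjustment over all tested genes, threshold 0.05), a procedure that was tested on simulated data. Median ratios assume that most genes do not change. Named genes were Trp53 and Ddx18, the 8 called genes with the largest changes in each direction (groups not overlapping, at least 5 FPKM on average in the group that is higher, predicted genes left out), the same for the fit on table means, and in each of 31 lists the 4 most changed called members, or the 2 with the highest mean where none was called; others are said to be chosen later. The members and lists were chosen with earlier results of these data known. Promoters came from RefSeq tables on GRCm38.p6 and were searched with Python 3.11.15. Alternatives were other scalings, pseudocounts and filters, libraries left out, and other ESC libraries. Some named genes are not reported here.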

Additional observations from a re-analysis of the deposited data

How the results depend on the processing

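Of the 105 called named genes, quantile normalization kept all 105 calls, values as deposited lost 11, a pseudocount of 0.1 lost 8, no filter on low values 20 and no variance trend 21. Leaving out 1 library gave 116 to 3461 called genes, 26 to 1605 higher and 90 to 1856 lower, and 21 to 50 p53 targets lower; without either p53 KO library 66 named calls were lost. Without a filter 1132 genes were called, 648 of them lower, and values as deposited gave 404 higher and no variance trend 443 higher. With all 11 libraries of both ActD tables in the fit, 3896 genes were called, 1832 higher and 2064 lower. That fit includes the libraries given ActD at 5 or 10 ng/ml. Alternatives chosen after the data were seen used other ESC libraries. With both sets of ESCs together, 1069 genes were called, 395 higher. With the first ESC library (lane label L2) and the CHX-table ESCs 267 were called, 97 higher and 170 lower, and 27 p53 targets were lower. With the CHX-table ESCs alone the log2 change turned to 0.047 for Utf1, -0.049 for Mtf2, -0.010 for Eif2s3x, -0.42 for mt-Co1 and -0.52 for mt-Nd4, and with the L2 library added to -0.13 for mt-Nd4; the cause was not tested. The fit on table means called 0 to 2 genes with 1 table left out. No paired analysis was possible because the columns carry no replicate numbers of the labels. FPKM hold no read counts, so the precision of low values is unknown.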
